A study of Mus musculus with 4 samples.

Results

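Enzymes of glycolysis, the pentose phosphate pathway and the citrate cycle were compared between CD8α+ and CD8α- dendritic cells of the mouse spleen. The members came from a list of 36 genes, and a probe set was used where the platform annotation gave 1 of these genes as its only symbol. This held for 33 genes and 78 probe sets, of which 75 were among the 45037 probe sets of the array that are no controls and 3 were array controls for Gapdh. Gpi1, Eno1 and G6pdx were not analysed here. After dim probe sets were set aside, 64 probe sets of 31 of the genes were tested, in a fit of 22519 probe sets that represented 10532 genes.

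Each population was read on 2 Affymetrix Mouse Genome 430 2.0 arrays. All cells came from the spleen of C57BL/6 mice, with no treatment in the labels, which give no age, sex or number of animals. The CD8α- group is defined by the absence of a surface protein and may hold several cell types. Whether the 2 arrays of a population stand for different animals is not stated, so a p-value reflects the spread of these samples alone, and that spread may be technical. Signals are quantile normalized and linear, and a difference is the log2 signal of CD8α+ cells less that of CD8α- cells, ± its standard error from limma. Since RNA was measured in bulk, fewer cells of a type and less RNA per cell cannot be told apart.

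Glycolysis splits glucose into pyruvate in the cytosol and yields a small amount of ATP. Pyruvate is then reduced to lactate or enters the mitochondrion, where pyruvate dehydrogenase feeds it into the citrate cycle. The pentose phosphate pathway branches off after the first step and supplies NADPH and ribose. Dendritic cells are known to raise glycolysis when activated, and hypoxia-inducible factor 1 is a known activator of many glycolytic genes.

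The arrays carried most of the markers their labels call for. Cd8a read 2014 and 2335 on the CD8α+ arrays and 15.2 and 27.0 on the CD8α- arrays, where the brightest Bacillus control, taken as background, read 28.3 and 34.5. At an unadjusted limma p under 0.05, 7 of 8 markers of conventional type 1 dendritic cells (cDC1) were higher in CD8α+ cells (7.13% of all genes). The exception, Batf3, read 114 and 139 in CD8α+ cells and 145 and 158 in CD8α- cells (-0.27 ± 0.32). Of 6 type 2 (cDC2) markers, 5 were lower (8.82% of all genes). CD8α- replicate 2 stood apart in its controls. In deposited signals, its Gapdh controls read 10.7 times more at the 3′ than at the 5′ end, against 1.53 to 2.02 on the other arrays. Its β-actin controls ran the other way, with a ratio of 0.759 against 1.62 to 1.69. Across the tested probe sets, which are no independent replicates, Pearson's r was 0.955 within the CD8α+ pair and 0.835 within the CD8α- pair.

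Differences between the populations were small for most of the enzymes against the spread of the arrays. Of the 31 tested, Pgam1 alone had an unadjusted limma p under 0.05, and it was higher in CD8α+ cells. Over all genes tested, 16% passed that level, 7.13% higher and 8.82% lower. After Benjamini-Hochberg adjustment none of the 31 passed 0.05, as for all genes (0.0%). Both CD8α+ arrays lay above both CD8α- arrays for 11 enzymes and below for 5, while the arrays of the other 15 overlapped. Over all genes the groups did not overlap for 53.9%, 25.6% higher and 28.3% lower. The median difference of the 31 was 0.18, between -0.89 for Mdh2 and 2.33 for Hk3, and that of all genes -0.02.

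The CD8α- arrays lay further apart than the CD8α+ arrays. As medians over the 31 enzymes, the CD8α+ arrays lay 0.10 log2 units apart and the CD8α- arrays 0.56, while the group means differed by 0.51 in size. Over all genes the same values were 0.19, 0.65 and 0.53. The CD8α- gap was the wider for 23 of the 31 enzymes, and the difference between the groups exceeded both gaps for 13. Set against each CD8α- array alone, the CD8α+ mean was higher for 18 enzymes against replicate 1 (49.1% of all genes). Against replicate 2 it was higher for 19 (45.9% of all genes), with the same direction against both for 20. By more than 1 log2 unit in both cases, only Pgam1 was higher and none was lower. For the counts over gaps, of shared direction and of more than 1 unit, the share of all genes was not computed. Without CD8α- replicate 2, 8 enzymes were higher and 2 lower at unadjusted p (all genes 28.2%), and without CD8α- replicate 1, 9 and 4 (44.1%). Without either CD8α+ array, 0 were called by limma (5.25% and 6.23% of all genes).

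**Figure D1:**
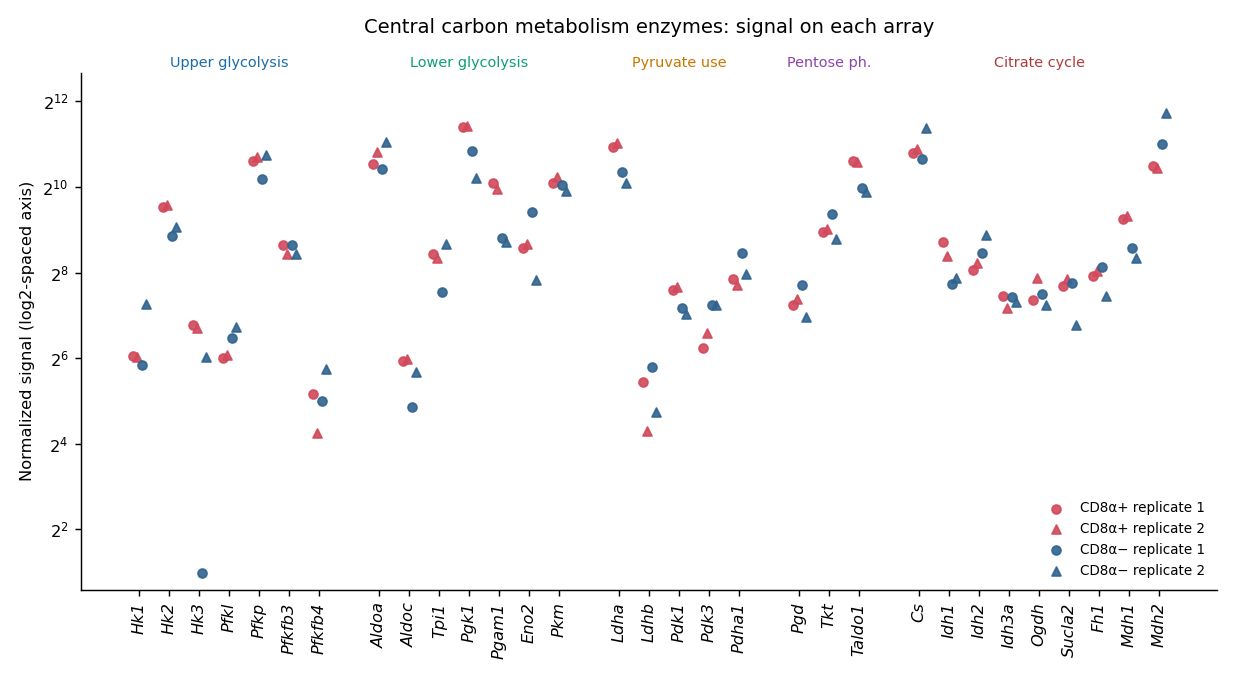
Normalized signal (log2-spaced axis) of the 31 tested enzymes on each of the 4 arrays, grouped by role, for the probe set that represents each gene. The red CD8α+ points lie close together for most genes, while the blue CD8α- points spread more widely, as for Hk3, Hk1, Eno2 and Tpi1.

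**Figure D2:**
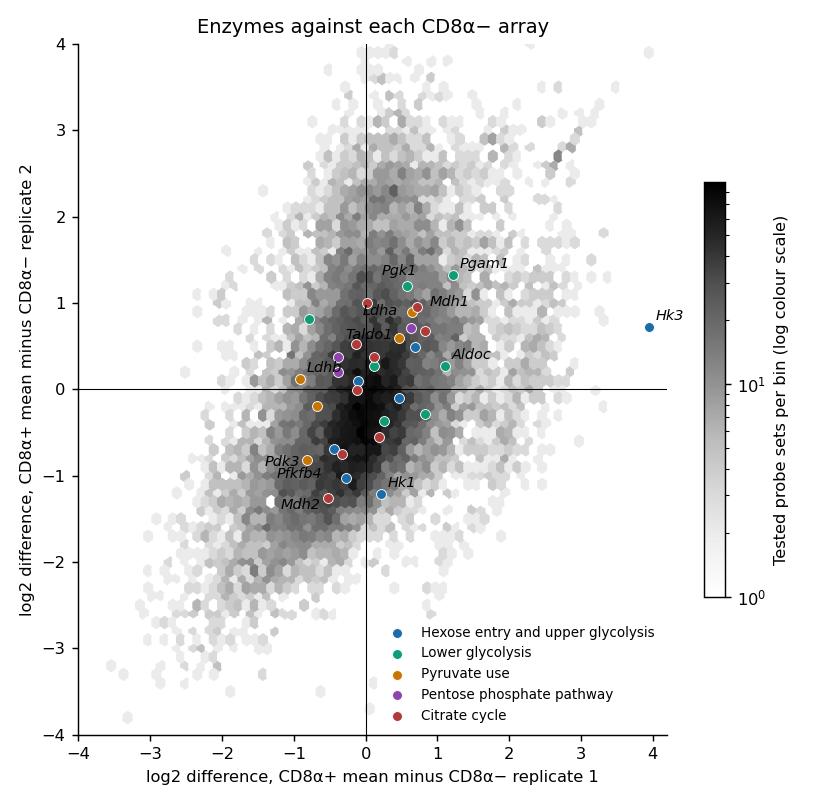
The CD8α+ mean minus CD8α- replicate 1 (x axis) and minus CD8α- replicate 2 (y axis), in log2 units, for the 31 enzymes by role over all tested probe sets in grey (a few probe sets lie beyond the axes). Points at the upper right were higher in CD8α+ cells against both arrays: Pgam1 was over 1 unit higher in both, and Hk3 lay far from the diagonal.

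Of the enzymes that bring glucose into glycolysis and control its flow, 2 of 7 tested had both CD8α+ arrays higher, 1 had both lower and 4 overlapped. Over all genes, 25.6% had both higher and 28.3% both lower. The median difference of these enzymes was -0.01. The hexokinases trap glucose as glucose 6-phosphate. Hk2, the inducible form of the enzyme, read 737 and 762 in CD8α+ cells against 463 and 534 in CD8α- cells. The arrays did not overlap, but the difference of 0.59 ± 0.31 had an adjusted p of 0.422. Hk1, the form most tissues carry, read 66.2 and 65.4 against 56.9 and 153, so CD8α- replicate 2 alone was high (-0.50 ± 0.56).

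Hk3, a hexokinase of blood cells, had a difference that turned on 1 array. It read 109 and 105 in CD8α+ cells, and 1.98 and 65.0 in CD8α- cells, where replicate 1 was below background and was raised to the floor of 6.99. The fitted difference was 2.33 ± 1.12, with an adjusted p of 0.393. It was 0.72 without CD8α- replicate 1, less than the 1.32 of Pgam1 there, and 3.94 without CD8α- replicate 2. Another probe set of Hk3 read 109 and 121 against 25.9 and 2.43. It carries the suffix _x_at, which marks probes that may bind other transcripts. Neither CD8α- array was above background there, and CD8α+ cells were brighter by at least 3.68-fold (3.09 ± 0.70, adjusted p = 0.195). Hk3 was thus brighter in CD8α+ cells on both of its tested probe sets, but the order of the CD8α- arrays was turned between them.

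Phosphofructokinase commits sugar to glycolysis, in a liver (Pfkl), a muscle (Pfkm) and a platelet (Pfkp) form. Pfkp read 1568 and 1667 in CD8α+ cells and 1171 and 1728 in CD8α- cells, so the CD8α+ values fell between the CD8α- ones (0.18 ± 0.36, adjusted p = 0.812). Pfkl read 64.2 and 67.0 against 89.2 and 106, lower on both CD8α+ arrays (-0.57 ± 0.31), with a further probe set at -0.53 and another at 0.93. The single probe set of Pfkm was too dim to test, at 4.75, 25.4, 41.6 and 1.31. Pfkfb3 and Pfkfb4 make fructose 2,6-bisphosphate, which switches phosphofructokinase on. Pfkfb3 read 397 and 345 in CD8α+ cells and 399 and 347 in CD8α- cells, a difference of -0.01 ± 0.32. Pfkfb4 was near background on the CD8α+ arrays, at 36.0 and 19.0, against 31.8 and 53.5 (-0.66 ± 0.50).

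The lower part of glycolysis turns triose phosphates into pyruvate. Here 4 of 7 tested enzymes had both CD8α+ arrays higher (25.6% of all genes), none had both lower (28.3%) and 3 overlapped. Their median difference was 0.27. Phosphoglycerate mutase Pgam1 read 1095 and 984 in CD8α+ cells and 449 and 417 in CD8α- cells. Each pair was close and the pairs lay well apart: the difference of 1.26 ± 0.31 was 2.39-fold, with a limma p of 0.0119 and an adjusted p of 0.21. The gene is read by 1 probe set, so no other probe set checks this value.

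Phosphoglycerate kinase Pgk1, which makes the first ATP of the pathway, read 2684 and 2733 in CD8α+ cells and 1823 and 1176 in CD8α- cells. The difference was 0.89 ± 0.37 (adjusted p = 0.353). Its other probe sets read 1981 and 1493 against 481 and 203 (2.46 ± 0.53, adjusted p = 0.186) and 815 and 824 against 371 and 184 (1.65 ± 0.45, adjusted p = 0.24). All 3 placed both CD8α+ arrays above both CD8α- arrays, with CD8α- replicate 2 the lowest. Both of the other sets are _x_at and may bind other transcripts, so they are a weak check on the first. The 3 sets differed in size by 1.57 log2 units.

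Aldolase, which splits fructose 1,6-bisphosphate, gave readings that depended on the probe set. Aldoa read 1478 and 1815 in CD8α+ cells and 1364 and 2116 in CD8α- cells on the probe set that represents it (-0.05 ± 0.38). Its other brighter sets lay between -0.14 and 0.08, whereas the dimmest read 191 and 151 against 57.2 and 53.0 (1.63 ± 0.33, adjusted p = 0.17). Each Aldoa probe set carries the suffix _x_at, which marks probes that may bind other transcripts. The brain form Aldoc was dim, at 60.9 and 63.5 against 29.0 and 51.4 (0.69 ± 0.41).

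Triose phosphate isomerase Tpi1 read 344 and 326 against 188 and 409, with the CD8α- arrays on either side (0.27 ± 0.48). Pyruvate kinase Pkm, the last enzyme of the pathway, read 1098 and 1198 in CD8α+ cells and 1063 and 954 in CD8α- cells. The arrays were apart, but by no more than 0.19 ± 0.31. The enolase Eno2 read 383 and 406 against 683 and 225, a difference of 0.01 ± 0.62 that rests on CD8α- arrays that lay 1.6 log2 units apart.

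Gapdh, which oxidizes glyceraldehyde 3-phosphate, was read by the array controls alone, which were left out of the test. The 3′ control read 3785 and 4179 in CD8α+ cells and 3932 and 5039 in CD8α- cells (-0.16), and the middle control 2328 and 2644 against 2622 and 3389 (-0.26). The 5′ control read 2340 and 2508 against 1966 and 700, a difference of 1.05. CD8α- replicate 2 was thus the highest array on the first 2 and the lowest on the last. The part of this 3′ to 5′ gap in the readings of single enzymes was not tested.

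**Figure D3:**
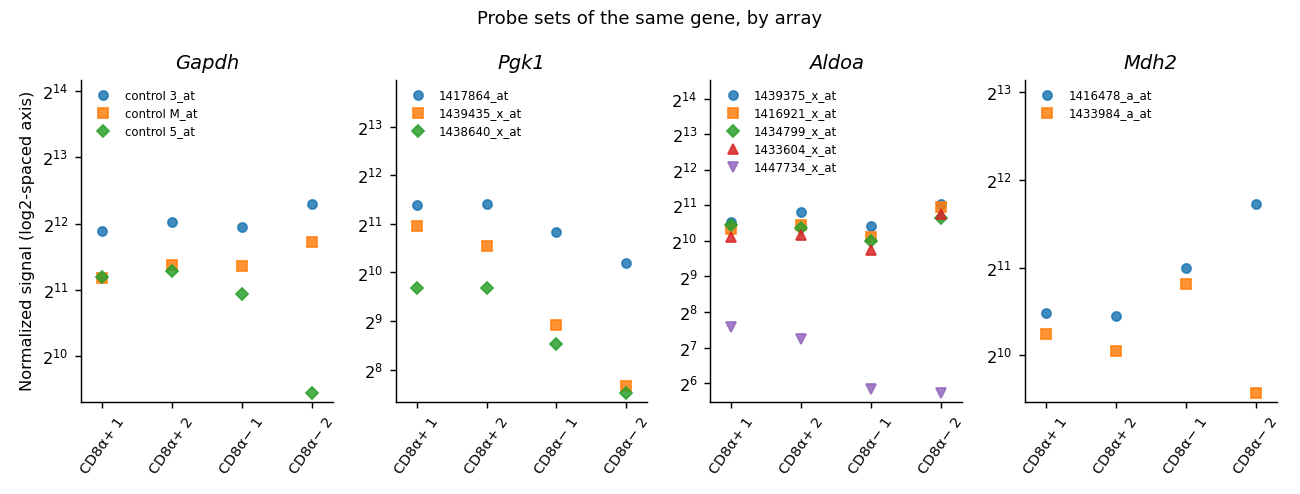
Normalized signal (log2-spaced axes) of each control probe set of Gapdh and each tested probe set of Pgk1, Aldoa and Mdh2, on the 4 arrays. Pgk1 was lower on both CD8α- arrays with each of its 3 probe sets, whereas the Gapdh 5′ control, at 700, and 1 set of Mdh2, at 762, had their lowest value on CD8α- replicate 2 while the other sets of these genes had their highest there.

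Among the 18 enzymes with several tested probe sets, the sets of 11 shared a sign and those of Pfkl, Aldoa, Pgd, Tkt, Cs, Idh3a and Ogdh did not. For Pfkp, Tpi1, Pgk1, Pdk1, Idh1, Mdh1 and Hk3 each set was higher in CD8α+ cells. For Ldhb, Pdha1, Idh2 and Mdh2 each was lower. A set of Hk3 and a set of Pdk1 passed the dimness filter only through their CD8α+ signal, and a set of Ldhb only through its CD8α- signal. These sets are no check on direction. The further sets of Pgk1, Mdh1 and Hk3, and some of other genes, carry the suffix _x_at.

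Pyruvate is reduced to lactate by lactate dehydrogenase, built from Ldha and Ldhb subunits. Ldha read 1966 and 2096 in CD8α+ cells and 1302 and 1089 in CD8α- cells. The arrays were apart and each pair was close, with a difference of 0.77 ± 0.32 and an adjusted p of 0.348. Ldhb was near background everywhere, at 43.5 and 19.7 against 55.1 and 26.9, with a difference of -0.40 ± 0.60.

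Pyruvate dehydrogenase opens the way to the citrate cycle, and its kinases shut it. The kinase Pdk1 read 192 and 202 in CD8α+ cells and 143 and 130 in CD8α- cells (0.53 ± 0.31), with further probe sets at 0.98 and 1.19. The kinase Pdk3 ran the other way, at 75.9 and 96.6 against 151 and 151 (-0.82 ± 0.32, adjusted p = 0.338). Pdha1, the catalytic subunit they phosphorylate, read 230 and 208 against 350 and 249 (-0.43 ± 0.35), with its other probe set at -0.33. Of these 5 genes of pyruvate use, 2 had both CD8α+ arrays higher (25.6% of all genes), 2 had both lower (28.3%) and Ldhb overlapped.

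Promoter sequences are shown for the lower glycolytic enzymes Pgam1 and Pgk1 and for Ldha, which read higher in CD8α+ cells, and for Mdh2, which read lower. Hk3, Pfkp and Taldo1 were selected for values by array under the same rule as these 4 and are not shown. They are RefSeq windows of GRCm38.p6, from 250 bases before to 50 after the start of transcription, on the strand of the gene. Capitals mark ACGTG, the core of the site that hypoxia-inducible factors bind, and its variant GCGTG, on either strand; ACGTG also lies within CACGTG. All 4 genes lie on the plus strand, with Pgam1 at chr19:41911621-41911920, Pgk1 at chrX:106186850-106187149, Ldha at chr7:46845554-46845853 and Mdh2 at chr5:135778399-135778698.
Pgam1: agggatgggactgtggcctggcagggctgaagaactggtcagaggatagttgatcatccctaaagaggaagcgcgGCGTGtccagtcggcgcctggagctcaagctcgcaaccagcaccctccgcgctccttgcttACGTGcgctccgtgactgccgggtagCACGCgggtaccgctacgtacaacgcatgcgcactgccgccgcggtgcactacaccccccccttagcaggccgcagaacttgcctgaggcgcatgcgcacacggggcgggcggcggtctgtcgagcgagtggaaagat
Pgk1: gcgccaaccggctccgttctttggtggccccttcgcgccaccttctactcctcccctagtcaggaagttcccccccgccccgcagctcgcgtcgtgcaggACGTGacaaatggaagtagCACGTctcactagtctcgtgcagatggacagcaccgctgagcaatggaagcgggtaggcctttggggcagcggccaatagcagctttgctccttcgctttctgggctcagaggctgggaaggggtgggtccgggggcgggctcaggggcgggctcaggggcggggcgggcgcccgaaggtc
Ldha: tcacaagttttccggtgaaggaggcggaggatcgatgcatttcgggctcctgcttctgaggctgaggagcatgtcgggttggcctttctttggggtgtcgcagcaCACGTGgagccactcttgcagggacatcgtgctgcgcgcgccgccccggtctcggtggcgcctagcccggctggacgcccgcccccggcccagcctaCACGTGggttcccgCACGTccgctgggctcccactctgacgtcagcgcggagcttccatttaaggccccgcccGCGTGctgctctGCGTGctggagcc
Mdh2: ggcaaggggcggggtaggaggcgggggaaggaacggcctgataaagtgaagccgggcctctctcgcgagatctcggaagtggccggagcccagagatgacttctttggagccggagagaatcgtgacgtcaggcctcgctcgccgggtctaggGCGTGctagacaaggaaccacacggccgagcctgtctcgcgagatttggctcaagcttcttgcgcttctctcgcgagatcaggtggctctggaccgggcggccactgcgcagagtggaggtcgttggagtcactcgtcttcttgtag

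Pgk1 held ACGTG at 2 places and Pgam1 at 1, the latter with 2 of GCGTG. Ldha held 5 of ACGTG, counting each strand of its 2 CACGTG, and 2 of GCGTG. Mdh2 held no ACGTG and 1 GCGTG. Of the selected members not shown, Hk3 held 1 ACGTG and 0 GCGTG, Taldo1 0 and 2, and Pfkp 0 and 4. Of the 36 listed genes 35 had a window, all but Idh3a, and the first listed window of each gene was counted. ACGTG lay in 13 of the 35 (37.1%), against 19.7% of 27025 genes, and GCGTG in 21, against 32.5%. The windows of these enzymes held a median of 21 CpG against 7 over all genes. Among the 7239 genes with at least 20 CpG in the window, 29.2% held ACGTG and 63.7% GCGTG. By array order, ACGTG was found for 7 of the 11 enzymes with both CD8α+ arrays higher, 1 of the 5 with both lower and 2 of 14 with overlapping arrays. GCGTG was found for 6 of the 11, all 5 and 7 of the 14, and either of the cores for 10, 5 and 8, so the motifs did not share an order. The counts depend on the window used. The first windows of Aldoa and Hk1, with overlapping arrays, and of Pkm, higher in CD8α+ cells, held no ACGTG, but another window of each did. Over all 55 windows of the listed genes 43.6% held ACGTG, against 19.6% of all windows. Windows of a gene can overlap and are not independent: Ogdh alone gave 6, each with ACGTG. A match describes these letters alone, and binding was not measured.

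Of the pentose phosphate enzymes, transaldolase Taldo1 read 1565 and 1539 in CD8α+ cells and 1004 and 948 in CD8α- cells. Both pairs were tight and did not overlap, and the difference was 0.67 ± 0.30 (adjusted p = 0.377). Transketolase Tkt, which works beside it in the branch that rebuilds sugars, read 496 and 516 against 663 and 441 (-0.10 ± 0.36). Phosphogluconate dehydrogenase Pgd, which makes NADPH, read 152 and 168 against 209 and 124 (-0.01 ± 0.40). Its other 3 probe sets, all _x_at, lay between -0.32 and 0.59. CD8α- replicate 2 was the highest array on 2 of them and the lowest on the other. The median of these 3 genes was -0.01.

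The citrate cycle oxidizes acetyl groups in the mitochondrion. Of the 9 enzymes listed for it, 2 had both CD8α+ arrays higher (25.6% of all genes), 2 had both lower (28.3%) and 5 overlapped. The median was 0.20, but the list holds the cytosolic Idh1 and Mdh1, so this is not the median of the mitochondrial enzymes alone. Both that were higher act outside the mitochondrion, and both that were lower are their mitochondrial counterparts, but Idh2 turned to 0.45 and Mdh2 shrank to -0.10 on the deposited scale and with arrays centred on their medians, where the median of all genes was 0.65. Cytosolic malate dehydrogenase Mdh1 read 610 and 637 in CD8α+ cells and 381 and 324 in CD8α- cells. The difference was 0.83 ± 0.31 (adjusted p = 0.324). The other tested probe sets, both _x_at, gave 0.73 and 0.98, each with the arrays apart.

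Mitochondrial malate dehydrogenase Mdh2 read 1435 and 1402 in CD8α+ cells and 2046 and 3396 in CD8α- cells (-0.89 ± 0.39, adjusted p = 0.364). Its other probe set read 1216 and 1061 against 1800 and 762, where the CD8α- arrays fell on either side (-0.04 ± 0.52). Cytosolic isocitrate dehydrogenase Idh1, which makes NADPH, read 420 and 336 against 213 and 234 (0.75 ± 0.32), with a second set at 0.34. Its mitochondrial counterpart Idh2 read 265 and 300 against 354 and 473 (-0.54 ± 0.34), with a second set at -0.12. The pairs Mdh1 with Mdh2 and Idh1 with Idh2 were picked out after their values were seen, and the difference within a pair was not tested.

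The remaining citrate cycle enzymes overlapped. Citrate synthase Cs, which opens the cycle, read 1768 and 1891 in CD8α+ cells and 1603 and 2675 in CD8α- cells (-0.18 ± 0.39), while its other probe sets gave 0.74 and 0.55. The NAD-dependent isocitrate dehydrogenase subunit Idh3a read 175 and 143 against 172 and 160 (-0.07 ± 0.32), with sets at 0.60 and -0.77. The oxoglutarate dehydrogenase subunit Ogdh read 164 and 235 against 181 and 152 (0.24 ± 0.36), and its other set -0.88. The succinyl-CoA ligase subunit Sucla2 read 207 and 229 against 215 and 109 (0.51 ± 0.45), and fumarase Fh1 243 and 264 against 278 and 175 (0.20 ± 0.38). In the last 2 genes CD8α- replicate 2 alone was low.

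**Figure D4:**
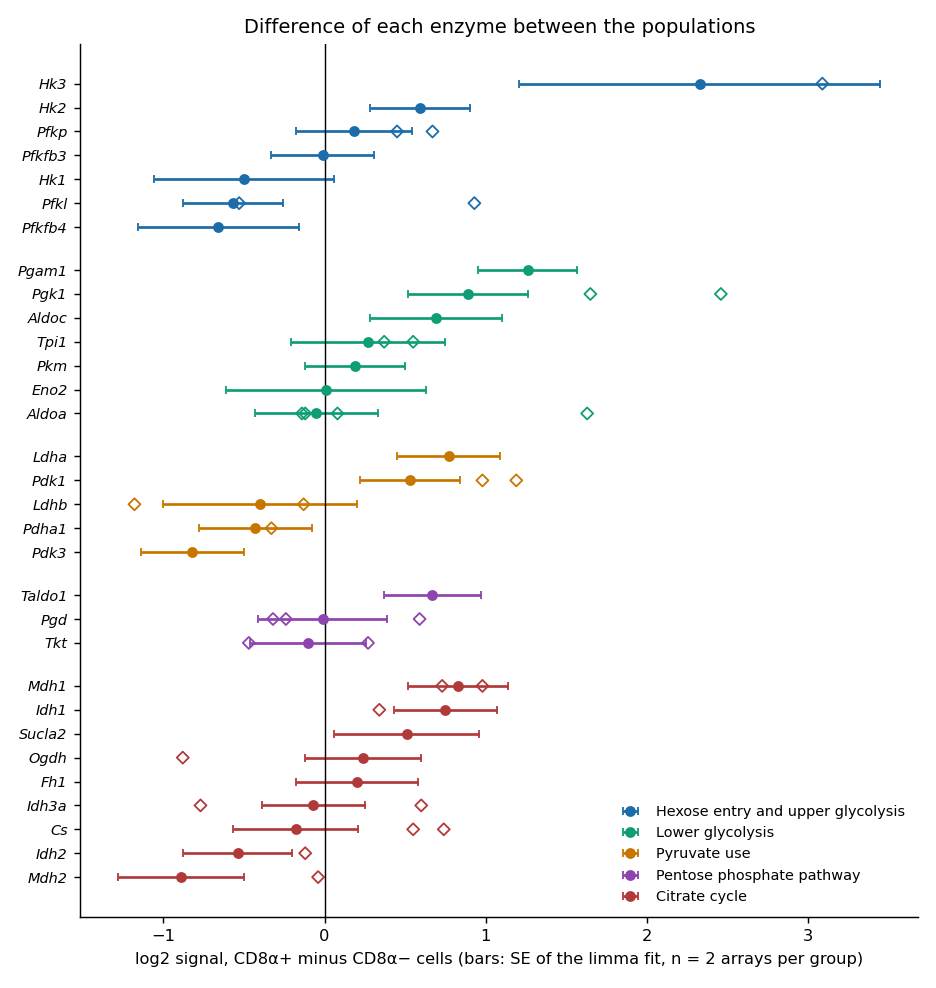
Difference (log2, CD8α+ less CD8α-) of each tested enzyme for the representing probe set (filled points, bars ± 1 standard error from limma, 2 arrays per group) and its other tested probe sets (open diamonds), by role. Pgam1 stood at 1.26 with a short bar, Hk3 at 2.33 with a long bar, and Mdh2 lowest at -0.89.

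Further genes of the same pathways were read from lists of 91 genes, 67 of which were tested. At unadjusted limma p, 3 of the 67 were higher in CD8α+ cells, 9 lower and 55 not called, and none passed after adjustment. Their median difference was -0.04. The share called, 17.9%, was close to the 16% of all genes.

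Carriers that move glucose, lactate and pyruvate across membranes mostly read lower in CD8α+ cells. Of 6 tested, 5 had both CD8α+ arrays lower (28.3% of all genes) and 1, the lactate and pyruvate carrier Slc16a1, had both higher (25.6%). The median was -0.89. At unadjusted limma p, 2 of the 6 were lower (8.82% of all genes) and 0 higher. The hexose carrier Slc2a6 read 78.1 and 76.3 in CD8α+ cells and 421 and 667 in CD8α- cells (-2.78 ± 0.38, adjusted p = 0.117). The lactate exporter Slc16a3 read 126 and 143 against 634 and 405 (-1.91 ± 0.38, adjusted p = 0.168). Slc16a1 gave 0.85 on the set that represents it and -1.72 on another. The difference between carriers and enzymes was not tested.

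In the list of further glycolytic, glycogen and gluconeogenic genes, 2 of 16 were higher at unadjusted limma p (7.13% of all genes). In the same list 3 were lower (8.82% of all genes). The liver glycogen phosphorylase Pygl read 51.0 and 74.5 in CD8α+ cells and 203 and 298 in CD8α- cells (-2.0 ± 0.40, adjusted p = 0.17). The muscle enolase Eno3 read 147 and 150 against 362 and 362 (-1.29 ± 0.30, adjusted p = 0.201). Glycerol phosphate dehydrogenase Gpd1 (-2.50 ± 0.54) was above background on 1 array only. Phosphoglucomutase Pgm1 read 138 and 93.0 against 49.5 and 40.1 (1.35 ± 0.37, adjusted p = 0.241), with another probe set at -0.41. Bisphosphoglycerate mutase Bpgm, a relative of Pgam1, read 50.5 and 53.1 against 26.7 and 10.5, a signal at least 1.66-fold higher in CD8α+ cells.

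No gene of the further pyruvate dehydrogenase (7) and pentose phosphate (6) lists was called (16% of all genes either way). In the list of citrate cycle and malate shuttle genes, 1 of 21 was higher (7.13% of all genes) and 1 lower (8.82%). Cytosolic aspartate aminotransferase Got1, which works with Mdh1 in the malate-aspartate shuttle, read 1165 and 1194 in CD8α+ cells and 510 and 611 in CD8α- cells (1.08 ± 0.32, adjusted p = 0.255). Acod1, which draws aconitate from the cycle to make itaconate, read 196 and 161 against 365 and 377 (-1.07 ± 0.32, adjusted p = 0.259).

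In the hypoxia-inducible factor list, 3 of 11 genes were lower in CD8α+ cells at unadjusted limma p (8.82% over all genes) and 0 higher. By sign, 6 were positive and 5 negative, with a median of 0.15. The target and stress gene Ddit4 read 126 and 144 in CD8α+ cells and 942 and 1270 in CD8α- cells (-3.02 ± 0.34, adjusted p = 0.115). The prolyl hydroxylase Egln3 was not above background in CD8α+ cells and at least 2.48-fold brighter in CD8α- cells, with another probe set at -0.54. Vegfa, a growth factor of blood vessels, read 62.2 and 59.9 against 250 and 124 (-1.53 ± 0.45, adjusted p = 0.258). Hif1a itself read 1520 and 1379 against 1397 and 98.8 (1.96 ± 1.31), and its other 3 probe sets gave 0.25, -0.30 and -1.30.

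Markers of several other cell types also read lower in CD8α+ cells. The 7 tested natural killer cell markers summed to 704 and 871 in CD8α+ cells and 3768 and 2198 in CD8α- cells. Of the 7, 4 were lower at unadjusted limma p (8.82% of all genes), while Prf1 lay at 0.14. The 7 monocyte and macrophage markers summed to 3969 and 4051 against 6396 and 8594, with 3 lower and 1, Vcam1, higher (7.13% of all genes). The 6 neutrophil markers summed to 6980 and 7599 against 14512 and 11779, with 4 lower and Cxcr2 at 0.53. Bright genes weigh most in such sums, as Klrd1 (1638), Gzma (1555), S100a9 (6984) and S100a8 (5542) on CD8α- replicate 1. No gene of the T cell (5), erythroid (3) and platelet (2) lists was called. Of 6 plasmacytoid dendritic cell markers 1 was lower, and of 3 B cell markers 1 was lower and 1 higher. All 4 arrays were above background for 4 of the 7 natural killer cell, 6 of the 7 monocyte and macrophage and 5 of the 6 neutrophil markers. The macrophage marker C1qb, at 16.3 and 11.9, was below background on both CD8α+ arrays. The part of such cells in the values of Slc2a6, Slc16a3, Pygl, Acod1 and Ddit4, and of the other genes that were lower in CD8α+ cells, was not tested.

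**Figure D5:**
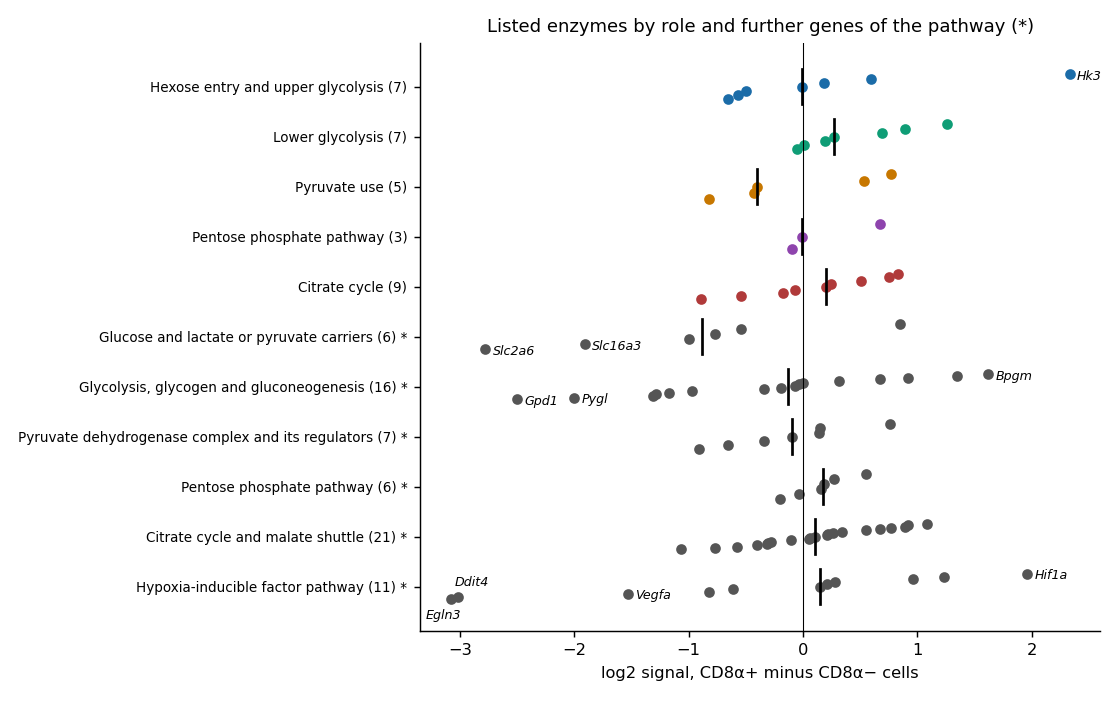
Difference of each tested gene, log2 signal in CD8α+ minus CD8α- cells, by list, with the number of genes in brackets and black ticks at the medians. The coloured enzymes lie within 1 log2 unit of 0 apart from Hk3 and Pgam1, while the further pathway genes (grey, marked with an asterisk) reach -3.02 for Ddit4. The point of Egln3 beyond it rests on signals that were not above background in CD8α+ cells.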

How the data were processed

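What the authors deposited is the linear intensity of each probe set on each array, with no detection calls. Per the submitters' processing notes it is a MAS5 signal, and the design text adds Microarray Suite and GeneSpring. The design text and the labels' protocols describe RNA extraction and labelling differently (mRNA with the Ovation system, or Trizol and cRNA), which is not settled here. Since the deposited medians ran from 17.4 to 35.1, the log2 signals were quantile normalized, raised to a floor of 6.99 (mean 25th percentile) and tested where the mean signal reached the median, 23.0. Gene names came from the platform annotation (34945 probe sets with 1 symbol, 932 with several, 9160 with none). A gene was read by its brightest tested probe set, _x_at only where alone. limma 3.58.1 in R 4.3.3 compared the groups (lmFit, eBayes, two-sided, Benjamini-Hochberg over 22519 probe sets, 2 residual and 2.48 prior degrees of freedom), and the script was tested on simulated data. A permutation test of 2 against 2 arrays cannot go below 0.333. With 2 arrays per group precision is low. Background was the brightest of 27 Bacillus controls per array. A fold is "at least" where no array of the dimmer group exceeded it: the brighter mean over the higher of background and own signal.

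Members given array by array were those with an unadjusted p under 0.05, those at least 1 log2 unit apart without overlap, and the brightest of each role. The other members were added after their values were seen. Of the further lists, up to 3 genes per direction with an unadjusted p under 0.05 were named, with Slc16a1 and Hif1a added after their values were seen. Members and lists were chosen with earlier results of these data known. Alternatives covered the scale, floor, filter, prior, block, each array left out and the mean over probe sets.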

Additional observations from a re-analysis of the deposited data

How the results depend on the processing

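Of the 13 alternatives, none that kept all 4 arrays gave an enzyme an adjusted limma p under 0.05. Over all genes, 1.66% passed with arrays centred on their medians and 0.388% with a filter at the 75th percentile. The share was 0.37% with an intensity trend, 0.104% with a replicate block and 0.0% in the rest of these alternatives. The count at unadjusted p, 1 higher and 0 lower, did move. It was 8 higher on the deposited scale (13.4% of all genes called either way), 3 with arrays scaled to a common trimmed mean (21.3%) and 15 with arrays centred on their medians (32.4%), with 0 lower each time. On these scales the median of all genes was 0.65, -0.16 and 0.65, and that of the enzymes 1.02, 0.21 and 1.02, so the enzymes stood 0.37, 0.36 and 0.37 above it against 0.20 on the main scale. The count was 4 higher and 1 lower with no floor and a pseudocount of 16 (17.9%), 7 and 2 without the dimness filter (15.5%), 6 and 1 with a filter at the 75th percentile (19.9%), 6 and 2 with an intensity trend (17.4%), and 5 and 1 with the mean over the probe sets of a gene (19.0%). Leaving out each array gave medians of 0.11 to 0.27. Such a fit leaves 1 sample in a group, assumed to vary like the other pair, so its p-values rest on the spread of that pair. A replicate block on the sample numbers gave 2 higher and 0 lower, and 11 genes of all passed after adjustment. In the labels, same-numbered arrays share only the number, and their deviations correlated at 0.0311. The cause of the other changes was not tested.

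Pgam1 kept its direction in all 13 alternatives and an unadjusted p under 0.05 in 11, missing it without either CD8α+ array (p up to 0.145). Mdh1 passed in 10, Ldha in 9, Taldo1 in 7 and Pgk1 and Idh1 in 6, each positive in all 13. The passes include fits with 1 array in a group, and scales on which the median of all genes was 0.65, so they are no independent checks. Relative to the median of all genes, Pgam1, Mdh1, Ldha, Taldo1, Pgk1 and Idh1 were also positive in all 13. Pgk1 was 1.20 without CD8α- replicate 1 and 0.57 without replicate 2. Hk3 was positive in the 12 that tested it, from 0.72 to 3.94, and passed in 6. Mdh2 was negative in all 13, from -1.26 to -0.10, and passed in 3, and Pdk3 lay between -0.99 and -0.02 and passed in 4. Idh2, Pdha1 and Pfkl turned positive in 2 of 13 (up to 0.45, 0.55 and 0.08), on the deposited and the median-centred scale. Relative to the median of all genes, these 5 were negative in all 13. Pfkp turned to -0.10 without CD8α- replicate 1 and was 0.47 without CD8α- replicate 2.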
